A study of Mus musculus with 16 samples.

Results

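Zfp14 is a zinc-finger gene of mouse chromosome 7 that lies in a cluster of related genes. The results concern Zfp14 and 9 zinc-finger genes around it, which together make up 10 of the 39057 genes in the count table. Zfp14 was chosen by its own decrease with *APOE4* in these libraries, so its values in that comparison are given as a description, without a test. The 9 others, Zfp82, Zfp566, Zfp260, Zfp382, Zfp146, Zfp74, Zfp568, Zfp790 and Zfp27, were chosen for their family and their position, to see whether the lower level of Zfp14 is shared by its neighbours. All 10 were found in the table by their Ensembl identifiers. Counts of 9 passed the filter on low values, and Zfp82 did not.

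Primary brain endothelial cells from the cortex of *APOE3* and *APOE4* targeted replacement mice were grown in culture, and the RNA of 16 cultures was sequenced, 8 per genotype with 4 from males and 4 from females. In both lines a human *APOE* isoform stands in place of the mouse gene and is driven by the mouse Apoe promoter. According to the labels the mice were 21 to 28 days old, each culture was grown from 1 brain, and the cells received no treatment other than selection with puromycin (8 μg/ml), an antibiotic that brain endothelial cells tolerate better than other brain cells. Each genotype was 1 mouse line, so the human isoform and any other difference between these lines, including sequence on chromosome 7 where both Apoe and Zfp14 lie, cannot be told apart. Zfp14 starts 10.3 Mb beyond the end of Apoe (chromosome 7, 19696109 to 19699188, GRCm38).

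Total counts were 12717847 to 18624417 per library, and log2 totals did not pass a test between genotypes (two-sided exact permutation test, p = 0.758). All 15 endothelial markers were detected, with summed levels of 16915 to 18092 CPM (reads scaled to a common library size) in *APOE3* and 16667 to 18298 CPM in *APOE4* libraries. Markers of astrocytes, microglia and macrophages, oligodendrocytes and neurons summed to at most 4.16, 7.94, 1.97 and 14.8 CPM in a library, and Gjb6, P2ry12, Mobp and Olig2 were at 0 in every library. Markers of pericytes and smooth muscle were present, with summed levels of 191.6 to 359.8 CPM in *APOE3* and 226.4 to 344.6 CPM in *APOE4* libraries. Most of this came from Tagln and Acta2. Over all libraries Cspg4, Pdgfrb and Anpep had means of 7.34, 5.42 and 4.33 CPM. Des, Myh11 and Cnn1 were at 1.75, 1.46 and 0.693 CPM, while Rgs5, Kcnj8 and Abcc9 had at most 14 counts. Fibroblast markers summed to 13.3 to 65.3 and 10.4 to 85.2 CPM. Neither list passed the test between genotypes (adjusted p = 0.756 and 0.822, exact permutation test). Summed neuron markers were higher with *APOE4* (10.9 ± 1.25 and 13.5 ± 1.54 CPM, exact permutation test, adjusted p = 0.0111 over 11 values per library). Most of the sum came from Tubb3. Its log2 fold change was 0.21 and that of Rbfox3, with at most 39 counts, was 0.64 (edgeR, adjusted p = 0.156 and 0.132). Map2 had at most 24 counts, Nefl 6, Syt1 4 and Snap25 2. Human *APOE* was 1172 ± 174 CPM in *APOE3* and 796 ± 134 CPM in *APOE4* libraries (adjusted p = 0.00513, exact permutation test). Mouse Apoe was 15.6 ± 1.37 and 12.7 ± 1.94 CPM, also lower with *APOE4* (adjusted p = 0.00741, exact permutation test). A score of 24 cell cycle genes, their mean log2 CPM, was 5.18 to 6.26 in *APOE3* and 5.96 to 6.76 in *APOE4* libraries (adjusted p = 0.00741, exact permutation test). In bulk RNA, fewer cells of a type and less RNA per cell cannot be told apart.

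Zinc-finger genes of this kind encode proteins with a row of C2H2 fingers, short loops held by a zinc ion, that each contact a few bases of DNA. Most also encode a KRAB domain, which recruits the scaffold protein Trim28 (KAP1), the histone methyltransferase Setdb1, heterochromatin proteins and deacetylases to the bound site. The family has grown by repeated gene duplication, so its members often stand side by side in clusters, and many of the proteins are known for silencing transposable elements.

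The 10 genes spanned 354 kb. In order along the chromosome they were Zfp790 (29816114 to 29831005), Zfp27 (29893333 to 29906572), Zfp74 (29930815 to 29954089), Zfp568 (29983955 to 30028282), Zfp14 (ENSMUSG00000053985.10, 30036359 to 30051380), Zfp82 (30054489 to 30072900), Zfp566 (30077337 to 30090527), Zfp260 (30094777 to 30107622), Zfp382 (30121942 to 30134950) and Zfp146 (30161269 to 30169750). Zfp790, Zfp568, Zfp260 and Zfp382 are on the plus strand and the others on the minus strand. The closest neighbours of Zfp14 were Zfp82 at 3.11 kb and Zfp568 at 8.08 kb, and the farthest was Zfp790 at 205.4 kb. Counted in the longest reading frame of each gene's annotated transcripts, Zfp14 encodes 13 C2H2 fingers in 501 residues. Among the other members the number of fingers ran from 7 in Zfp566 to 18 in Zfp74 and 21 in Zfp27. Zfp146 and Zfp260 are known as proteins made of little else than fingers, without a KRAB domain, and have 10 and 12 fingers here.

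Because the members are relatives, reads could in principle be shared between them. None of the 3455 stretches of 50 bases in the Zfp14 transcripts was found in a transcript of another gene, and Zfp14 overlapped no other annotated gene. Zfp382 also had 0 shared stretches. Zfp82 shared 32.7% and Zfp566 15.6% of their stretches, nearly all with Gm26920, a gene model that overlaps both on the same strand and had 0 counts in every library, so the values of Zfp82 and Zfp566 are uncertain. Zfp74 shared 3.36%, mostly with C230062I16Rik, which lies on the opposite strand and had 3 to 11 counts. For the other members the shared part was at most 1.08%.

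The sequence just upstream of Zfp14 is shown because the members had a stretch of bases in common there. The 250 bases before the RefSeq start of Zfp14 (GRCm38.p6, chr7:30051397-30051646, minus strand) are given 5′ to 3′, with that stretch in capitals.

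Zfp14: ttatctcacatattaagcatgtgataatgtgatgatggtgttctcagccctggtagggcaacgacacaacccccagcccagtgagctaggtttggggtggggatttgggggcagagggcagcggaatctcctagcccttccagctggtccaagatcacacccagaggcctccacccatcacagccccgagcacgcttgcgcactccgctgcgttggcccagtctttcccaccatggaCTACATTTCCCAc

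The stretch, CTACANTTCCCA with any base at N, begins at position -13 from the start of Zfp14. Promoter sequences of 300 bases, from 250 before to 50 after a start, were found in RefSeq (GRCm38.p6) for 9 of the 10 members, and for Zfp568 none was used here. Read on either strand, the stretch was present in 6 of these 9 members, a count that includes Zfp14, from whose promoter it was taken. The stretch was chosen after the sequences had been seen, as the 12 bases that the Zfp14 promoter shares with the most other members. Of 2 such stretches, the one with the lowest share over all promoters was taken, so that share was kept low by the choice. The same letters were found in 0.819% of all 32851 RefSeq mouse promoters and in 11.4% of the 370 promoters of zinc-finger genes. Both sets include the members. With 42 of the 370 carrying them, these letters are not a feature of this cluster alone. The 6 matches are written on the strand that carries them, with 9 bases on each side and the match in capitals.

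Zfp790: ggccttgaaCTACATTTCCCAgaatacctc
Zfp74: tgctttgaaCTACATTTCCCAgagcccttc
Zfp14: caccatggaCTACATTTCCCAcaggcctct
Zfp566: tcggactgaCTACATTTCCCAgagggctcc
Zfp260: aactgtgaaCTACATTTCCCAgaagtctca
Zfp146: gactttggaCTACACTTCCCAcaaggcact

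The matches of Zfp14 and Zfp566 run in the direction of the gene and the other 4 against it, and they begin at positions -131 to -13 from the start. No match was found in the windows of Zfp82, Zfp382 and Zfp27. The Zfp14 promoter had 12 CpG dinucleotides and 59.0% G and C, and 39.6% of all promoters had at least as many CpG. Zfp382 had the most among the members, with 32. Zfp260 had 5, and Zfp27, with 2 annotated starts, had 1 and 13. TATAAA was absent on both strands from every member promoter and present in 13.6% of all promoters.

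Zfp14 transcripts were less abundant in *APOE4* brain endothelial cells. In *APOE3* libraries Zfp14 ran from 4.76 through a median of 9.67 to 13.1 CPM, and in *APOE4* libraries from 2.46 through 3.87 to 4.85 CPM. The *APOE4* libraries were thus all below the *APOE3* median, and the groups overlapped through 1 library alone, *APOE3* replicate 28, whose level of 4.76 CPM fell below the highest *APOE4* library. The next lowest *APOE3* library was at 7.81 CPM. The means were 9.61 ± 2.74 and 3.71 ± 0.791 CPM (SD, n = 8 each), 61.4% lower with *APOE4*. These levels rested on 79 to 212 reads per *APOE3* library and 31 to 82 reads per *APOE4* library.

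The log2 fold change of Zfp14 was -1.37 (SE 0.176, 95% interval -1.74 to -0.99), the largest decrease of the 12481 genes tested and the second largest change in either direction. These are the values by which Zfp14 was selected, so they support nothing further. The spread between cultures was wider than the reads alone would give. Its coefficient of variation was 28.5% in *APOE3* and 21.3% in *APOE4* libraries, against 8.20% and 13.1% expected from counting. Replicate 28 did not stand apart at the other members, where its levels lay within those of the other *APOE3* libraries except at Zfp82, and without it the log2 fold change of Zfp14 was -1.47.

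**Figure D1:**
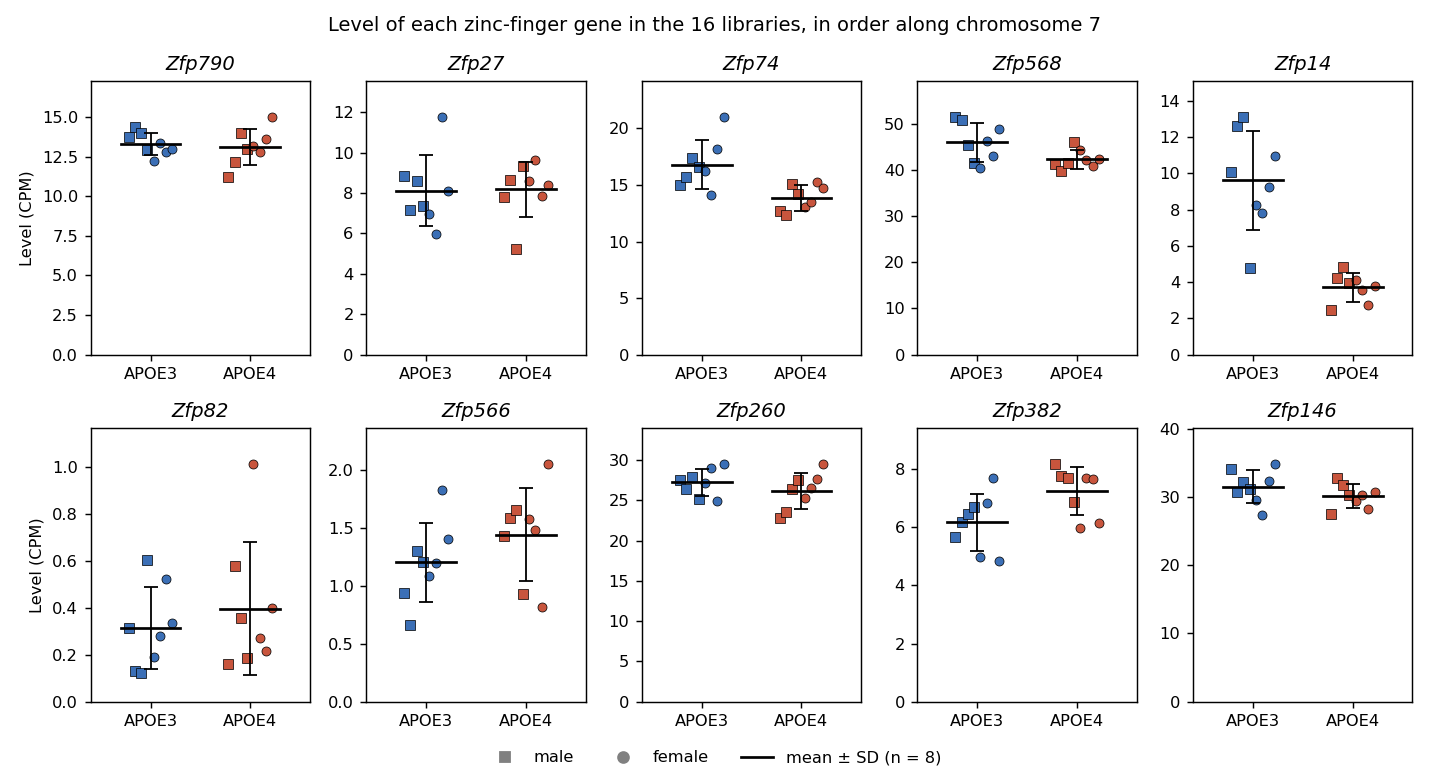
Level of each of the 10 zinc-finger genes in CPM (vertical axes, each from 0) in the 8 *APOE3* and 8 *APOE4* libraries, with squares for males, circles for females and black lines for the mean ± SD. Zfp14 is the gene whose genotypes come closest to separating, with *APOE3* replicate 28 at 4.76 CPM, while the levels of its neighbours Zfp568, Zfp82 and Zfp566 overlap widely.

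The neighbours did not share a change of this size. Of the 8 tested members other than Zfp14, 1 was lower with *APOE4* (Zfp74), 0 were higher and 7 did not pass the test (edgeR quasi-likelihood F test, Benjamini-Hochberg adjusted p under 0.05). Over all genes, 6.09% of the 12481 tested were lower, 6.71% were higher and 12.8% differed in either direction. DESeq2 and limma's voom called 0 members higher as well, and at an unadjusted p under 0.05 edgeR had 1 of the 8 higher (Zfp382) and 2 lower (Zfp74 and Zfp568). At that threshold DESeq2 had 3 of the 8 and voom 1, beside 3621 and 3623 of all 12481 genes. An edgeR fit with the library scaling of DESeq2 had 3618 of all 12481 genes there, so such counts are common here. The share of these 8 that edgeR called after adjustment, 12.5%, is near the 12.8% of all genes. The median log2 fold change of these 8 was -0.04, and that of all genes tested was -0.00022. No member separated the genotypes completely, as 0.625% of all genes tested did.

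Zfp74, 82.3 kb from Zfp14 and the gene with 18 fingers, was the 1 neighbour that passed. It ran from 14.1 through 16.4 to 21.0 CPM in *APOE3* and from 12.3 through 13.9 to 15.3 CPM in *APOE4* libraries. Each *APOE4* library was below the *APOE3* median and 4 were below the lowest *APOE3* library. The means were 16.8 ± 2.15 and 13.9 ± 1.12 CPM, a change of -0.27 on the log2 scale (SE 0.0761, adjusted p = 0.0241, edgeR). The call was lost without *APOE3* replicate 33, the library with the highest Zfp74 level (log2 fold change -0.22, adjusted p = 0.0523, edgeR). It was also lost in the edgeR fit that added the cell cycle score to genotype (-0.17, adjusted p = 0.765). That fit called 0 of all 12481 genes tested, so the loss there was not particular to Zfp74.

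Zfp568, the nearest tested neighbour on the other side from Zfp82, is known as a KRAB repressor of a placental Igf2 transcript and is required for mouse gastrulation. Its levels were 40.5, 45.7 and 51.5 CPM (lowest, median and highest) in *APOE3* and 39.8, 41.8 and 46.0 CPM in *APOE4* libraries. Of the *APOE4* libraries, 7 were below the *APOE3* median, but the groups overlapped over most of their range. Its change of -0.12 on the log2 scale (SE 0.0513, 95% interval -0.23 to -0.0087, adjusted p = 0.130) did not pass the test.

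Zfp566, the nearest tested gene on the Zfp82 side, had 10 to 31 reads per library. It ran from 0.657 through 1.20 to 1.82 CPM in *APOE3* and from 0.816 through 1.53 to 2.05 CPM in *APOE4* libraries, with 6 *APOE4* libraries above the *APOE3* median. The log2 fold change was 0.25 (SE 0.213, 95% interval -0.20 to 0.71, adjusted p = 0.463), and the depth gave little precision.

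Zfp82, which lies just beyond the 5′ end of Zfp14, had only 2 to 18 reads per library. Its levels were 0.124 to 0.603 CPM in *APOE3* and 0.159 to 1.01 CPM in *APOE4* libraries, and 4 of 8 *APOE4* libraries were on each side of the *APOE3* median. In a fit without the filter on low counts its log2 fold change was 0.35 (SE 0.430, 95% interval -0.58 to 1.27, adjusted p = 0.679). The interval is wide, and differences within it in either direction were not detectable at this depth.

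Both members known for fingers without a KRAB domain were well expressed. Zfp146 ran from 27.3 through 31.6 to 34.8 CPM in *APOE3* and from 27.6 through 30.3 to 32.8 CPM in *APOE4* libraries, a change of -0.07 on the log2 scale (SE 0.0511, adjusted p = 0.421). Zfp260 ran from 24.9 through 27.4 to 29.5 CPM and from 22.8 through 26.4 to 29.5 CPM, a change of -0.06 on the log2 scale (SE 0.0550, adjusted p = 0.542). The *APOE4* libraries of both genes lay largely within the range of the *APOE3* libraries.

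Zfp382 was the member with the highest share of *APOE4* libraries above the whole *APOE3* range. Its levels were 4.82, 6.31 and 7.68 CPM in *APOE3* and 5.96, 7.68 and 8.18 CPM in *APOE4* libraries, with 4 of the latter above the highest *APOE3* library. The log2 fold change of 0.23 (SE 0.101, adjusted p = 0.134) did not pass the test, and it was -0.01 in the fit that included the cell cycle score.

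Zfp790 and Zfp27, at the far end of the cluster, had log2 fold changes of -0.02 (SE 0.0621, adjusted p = 0.883) and 0.01 (SE 0.128, adjusted p = 0.968). Zfp790 was 12.2 to 14.4 CPM in *APOE3* and 11.2 to 15.0 CPM in *APOE4* libraries. Zfp27 was 5.98 to 11.8 and 5.21 to 9.64 CPM. Over the 8 tested neighbours the lowest bound of a 95% interval of the log2 fold change was -0.44, at Zfp74.

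**Figure D2:**
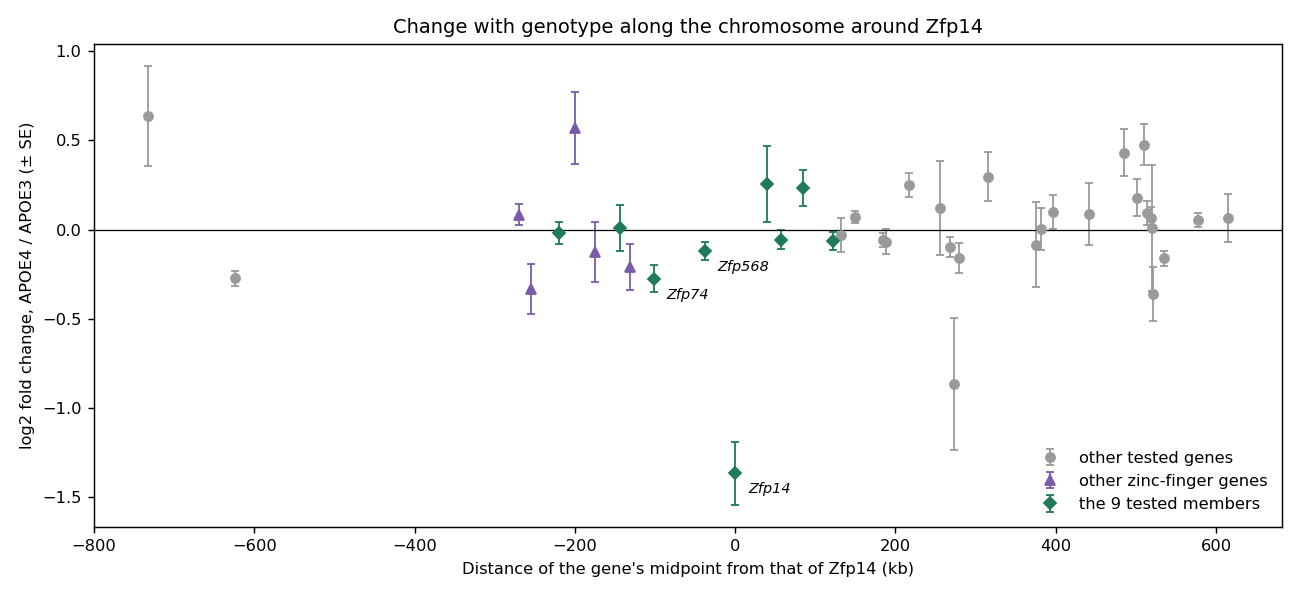
Log2 fold change between *APOE4* and *APOE3* (vertical axis, with SE bars) against the distance of each gene's midpoint from that of Zfp14 in kb (horizontal axis), for the 9 tested members (diamonds), 5 other zinc-finger genes (triangles) and 26 other genes (circles). Zfp14 sits at -1.37, and the other 8 tested members lie between -0.27 and 0.25.

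The members differed widely in level. Per kb of exon, Zfp146 was highest in *APOE3* libraries (9.64 ± 0.743 CPM per kb), followed by Zfp568 (6.24 ± 0.568), Zfp260 (4.70 ± 0.288), Zfp790 (3.64 ± 0.196), Zfp74 (2.98 ± 0.382), Zfp14 (2.77 ± 0.787), Zfp382 (2.68 ± 0.420), Zfp27 (1.92 ± 0.416), Zfp566 (0.695 ± 0.198) and Zfp82 (0.0517 ± 0.0288). Zfp74, Zfp14 and Zfp382 did not differ beyond their SDs, while the first 4 genes each stood apart from the next in the order. Zfp14 and Zfp382 overlapped with Zfp27 in their SDs too. In *APOE4* libraries Zfp14 was at 1.07 ± 0.228 CPM per kb, which placed it below Zfp382 (3.15 ± 0.357), Zfp74 (2.46 ± 0.199) and Zfp27 (1.94 ± 0.323), and its SD overlapped with that of Zfp566 alone (0.834 ± 0.231).

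A window of 500 kb to either side of the cluster held 63 further annotated genes, of which 31 were tested. With *APOE4*, 3 of these were higher, 2 were lower and 26 did not pass, a share called of 16.1% beside 12.8% of all genes, and their median log2 fold change was 0.05. Without *APOE4* replicate 41 the count called was 3 in place of 5. The genes called higher were Hspb6, a small heat shock protein (0.48, adjusted p = 0.0121), Arhgap33 (0.43, adjusted p = 0.0359), and Wdr62, a spindle pole protein (0.25, adjusted p = 0.0232). Those called lower were Sipa1l3 (-0.27, adjusted p = 0.00423) and Kmt2b, a histone H3 lysine methyltransferase (-0.16, adjusted p = 0.0198). The window also held 5 other zinc-finger genes (Zfp84, Zfp30, Zfp940, Zfp420 and Zfp383), with log2 fold changes from -0.33 to 0.57. In edgeR 0 of these 5 passed and 2 had an unadjusted p under 0.05, limma's voom called 0, and DESeq2 called 1 (Zfp940, 0.57 in edgeR) higher. Over all 12481 genes DESeq2 called 1965, and 3621 had an unadjusted p under 0.05 with it. After Zfp14 the lowest value in the window was that of Syne4, named here after it was seen, at -0.86 (SE 0.372, 95% interval -1.66 to -0.067, adjusted p = 0.128) with 0.858 and 0.457 CPM. This interval includes the value of Zfp14. Fits that included the cell cycle score, or held males alone or females alone, called 0 genes of the window, with 4, 7 and 6 at an unadjusted p under 0.05 in edgeR. Over all genes tested the same fits called 0, 0 and 2, with 885, 1825 and 2377 at an unadjusted p under 0.05.

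Zinc-finger genes at other positions were examined by symbol. Of 296 tested genes with zinc-finger symbols outside the cluster, 19 were lower with *APOE4*, 4 were higher and 273 did not pass, a share called of 7.77% against 12.8% of all genes tested. Their median log2 fold change was -0.05, and the lowest was -0.40. On chromosome 7 alone, 71 such genes were tested, 5 were lower and 0 were higher. Zinc-finger genes with other kinds of symbols were not in this list.

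**Figure D3:**
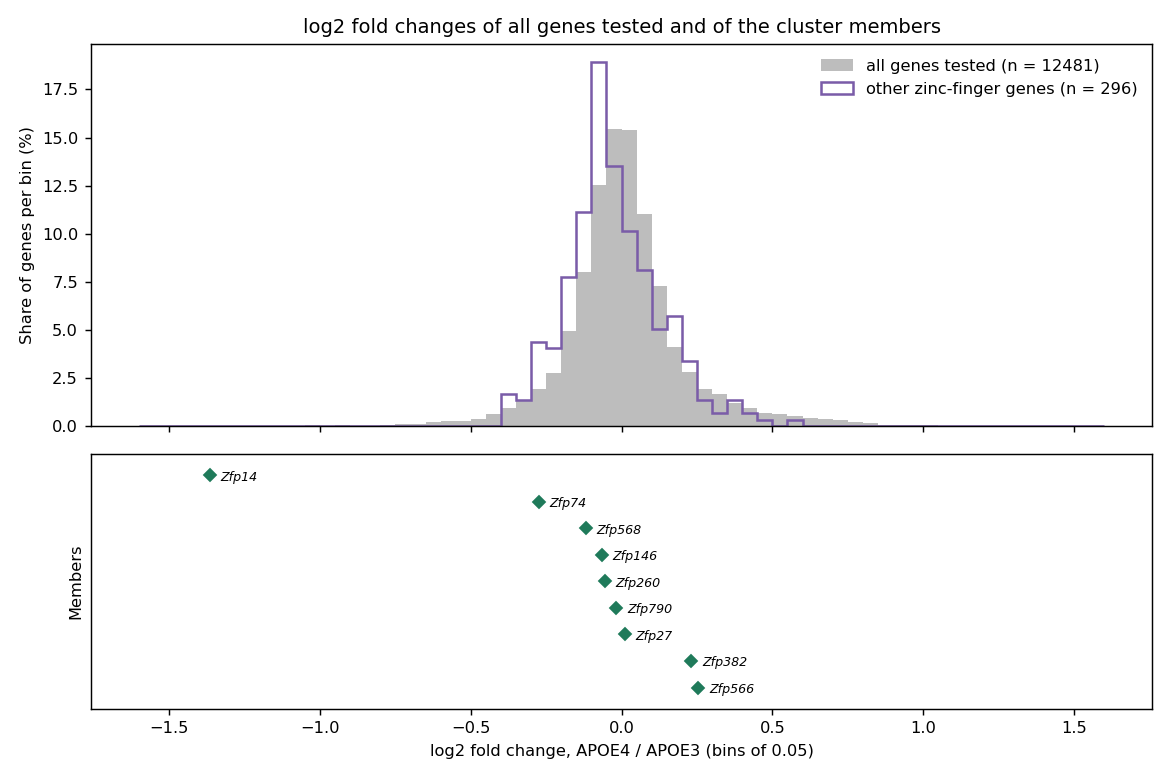
Distribution of log2 fold changes between *APOE4* and *APOE3* (horizontal axis, bins of 0.05) as the share of genes per bin in percent (vertical axis), for all 12481 genes tested (grey) and 296 other zinc-finger genes (purple line), with the 9 tested members as diamonds in the lower panel. Zfp14, which was selected for its decrease, lies at -1.37. The other zinc-finger genes run from -0.40 to 0.57, and the other members lie within that range.

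The comparison of males with females was not used in choosing Zfp14. Zfp14 was 10.2 ± 3.83 CPM in *APOE3* males, 9.07 ± 1.41 in *APOE3* females, 3.88 ± 1.02 in *APOE4* males and 3.54 ± 0.591 in *APOE4* females (n = 4 each). Females thus had levels close to those of males in each genotype. The log2 difference of females from males was -0.16 (SE 0.183, edgeR, adjusted p = 1.00). In this comparison 0.0721% of all genes tested (9 genes) differed, and 0 of the 9 tested members did, with 0 at an unadjusted p under 0.05.

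The effect of genotype on Zfp14 was -1.37 (SE 0.256) in males and -1.36 (SE 0.259) in females on the log2 scale. Both are the chosen contrast within a sex and are given as a description. Their difference was 0.01 (SE 0.374, edgeR interaction term, 95% interval -0.80 to 0.82, adjusted p = 1.00). With the interaction term 0% of the 12481 genes tested passed in edgeR, 345 had an unadjusted p under 0.05, and 0 members were among these. Of the members, Zfp790 came closest to an interaction. Its genotype effects were -0.12 (SE 0.0855) in males and 0.09 (SE 0.0852) in females. Their difference was 0.21 (SE 0.121, 95% interval -0.05 to 0.47, edgeR interaction term, unadjusted p = 0.0966), and it did not pass the test.

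The genes whose log2 CPM followed that of Zfp14 most closely over the 16 libraries were not in its cluster. They were Ctsl, a lysosomal protease, on chromosome 13 (Pearson r = 0.93), Mtmr3, a phosphoinositide phosphatase, on chromosome 11 (0.91), Cnot10, of the CCR4-NOT deadenylase complex, on chromosome 9 (0.90), Spag1 on chromosome 15 (0.90) and Mtfr1l on chromosome 4 (0.88). The difference between genotypes is part of these values. After each genotype was centred on its mean, r was 0.76, 0.64, 0.65, 0.77 and 0.68. The points share their libraries and normalization, and the log2 fold changes of these 5 genes were -0.16 to -0.36.

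Among the members the likeness to Zfp14 was lower. Zfp74 had r = 0.67 and Zfp568 r = 0.66, at ranks 601 and 620 of all genes tested, followed by Zfp146, Zfp260 and Zfp790 with 0.53, 0.38 and 0.33. The others were at or below 0, with Zfp27 at -0.0007, Zfp566 at -0.24 and Zfp382 at -0.58. The order was different after centring within genotype, where Zfp146 was at 0.53, Zfp568 at 0.52, Zfp790 at 0.46, Zfp260 at 0.28, Zfp74 at 0.18, Zfp27 at 0.06, Zfp566 at 0.06 and Zfp382 at -0.27.

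KRAB zinc-finger proteins act through a shared set of co-repressors, and 33 listed genes of this machinery were all tested. With *APOE4*, 4 were higher, 3 were lower and 26 did not pass, a share called of 21.2% beside 12.8% of all genes, with a median log2 fold change of 0.01. The count called was 4 without *APOE3* replicate 30 or 33 and 11 without *APOE3* replicate 31, and over all genes tested it ranged from 846 to 2127 when a library was left out. Trim28, the scaffold that binds the KRAB domain, was at 169.9 ± 7.86 CPM in *APOE3* and 162.2 ± 7.88 CPM in *APOE4* libraries (log2 fold change -0.07, adjusted p = 0.222). Setdb1, which trimethylates histone H3 at the bound site, was at 44.1 ± 2.33 and 41.9 ± 2.84 CPM (-0.07, adjusted p = 0.313). Neither passed the test.

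The co-repressor genes called higher were the DNA methylation factors Uhrf1 (0.37, adjusted p = 0.0301) and Dnmt1 (0.30, adjusted p = 0.0122), which copy methylation onto newly made DNA, the histone methyltransferase Suv39h1 (0.23, adjusted p = 0.00817) and the deacetylase Hdac1 (0.14, adjusted p = 0.0247). Those called lower were Dnmt3b, a de novo DNA methyltransferase (-0.26, adjusted p = 0.0485), Chd3, a chromatin remodeller (-0.19, adjusted p = 0.0132), and Ehmt1, a histone methyltransferase (-0.11, adjusted p = 0.0232). In the edgeR fit that included the cell cycle score 0 of the 33 were called and 3 had an unadjusted p under 0.05. Over all 12481 genes that fit also called 0, with 885 at an unadjusted p under 0.05. The score itself was higher in *APOE4* libraries, from 5.68 ± 0.365 to 6.29 ± 0.277. Its part in these results was not tested.

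The log2 fold change of Zfp14 was also computed in 27 alternative fits. These used the same contrast and mostly the same libraries as the choice of Zfp14, so its sign in them is no support. The values ran from -1.47 without *APOE3* replicate 28 to -1.22 when the cell cycle score was included. For the other members the values under these alternatives stayed between -0.31 (Zfp74) and 0.44 (Zfp566).

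**Figure D4:**
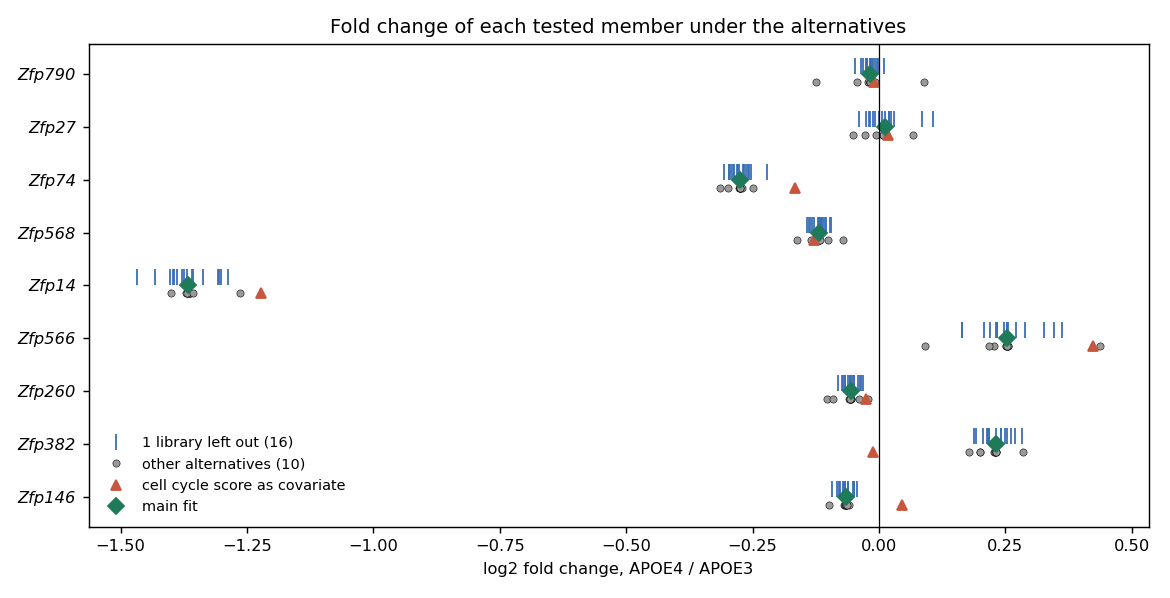
Log2 fold change between *APOE4* and *APOE3* (horizontal axis) of each of the 9 tested members (vertical axis, in order along the chromosome) as reported (diamonds), in 16 fits that each left out 1 library (ticks), in the fit that included the cell cycle score (triangles) and in 10 other fits (circles). Zfp14 stays between -1.47 and -1.22, apart from the other members, of which Zfp382, Zfp146, Zfp27 and Zfp790 cross 0 in some fits.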

How the data were processed

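The authors deposited a table of counts, whole numbers of reads per gene without normalization, for 39057 genes. The labels name STAR and featureCounts, without versions, and the builds mm10 and hg38. Strand settings and the annotation release were not given in the sources used here, and reads carried no molecular identifiers. All columns were matched to a library by its label. Gene positions were taken from GENCODE mouse release M21 (GRCm38), where 38872 identifiers were found.

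Genotypes were compared with edgeR 4.0.16 in R 4.3.3, by the quasi-likelihood F test with TMM factors, low counts removed by filterByExpr, no covariate, and Benjamini-Hochberg adjustment over 12481 genes (threshold 0.05). The SE is the size of the log2 fold change divided by the square root of F, and intervals use 14 degrees of freedom (12 for the sexes). CPM are scaled to the normalized library size, and log2 CPM used a prior count of 2. Males and females were compared in 1 edgeR fit of 4 groups. Single values per library were compared by two-sided exact permutation tests over 12870 assignments, adjusted over 11 values. The edgeR fit of the 2 genotypes was tested on simulated data, and the other fits were not. DESeq2 1.42.0, limma 3.58.1 and sva 3.50.0 served for alternatives, and figures were drawn in Python 3.11.15 with matplotlib 3.10.9.

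The members, the lists and the tests were chosen with earlier results of these data known. Named genes are the members, the called genes of the window and of the co-repressor list, Trim28 and Setdb1, and the 5 genes most correlated with Zfp14. The other zinc-finger genes of the window and Syne4 were named after their values were seen. The promoter stretch was 1 of 2 that were shared equally widely, and was taken for its lowest share over all promoters. C2H2 fingers were counted as C, 2 residues, C, 12 residues, H, 3 to 5 residues, H. Raw reads were not used here.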

Additional observations from a re-analysis of the deposited data

Results flagged for a closer look

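Among the 20 groups of 8 libraries examined (10 members in 2 genotypes), 1 library lay far from the others of its group by Dixon's criterion, which chance meets in about 1 of 20 groups. It was *APOE4* replicate 37 at Zfp27, with 5.21 CPM (88 reads), while the next lowest *APOE4* library had 7.78 CPM. The gap was 0.581 of the range of the group, above the 95% critical value for 8 libraries. Replicate 37 had the highest Zfp14 level of the *APOE4* libraries, at 4.85 CPM. *APOE3* replicate 28 at Zfp14 was not singled out by this criterion.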

How the results depend on the processing

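Values are given for 27 alternative fits, 16 of which left out 1 library each. The log2 fold change of Zfp14 was -1.47 to -1.29 when a library was left out. Members called lower, a count that includes Zfp14 and was 2 as reported, numbered 0 when the cell cycle score was added to the model and in males alone, 1 with females alone, and 1 to 2 when a library was left out (1 without *APOE3* replicate 33). Members called higher were 0 in all 27. Over all genes, 0 were called when the score was added (885 at an unadjusted p under 0.05 in edgeR), 0 with males alone (1825) and 2 with females alone (2377), and leaving out a library gave 846 (without *APOE4* replicate 41) to 2127 calls. In the window 0 genes were called in each of these 3 fits, with 4, 7 and 6 at an unadjusted p under 0.05, and 3 to 6 when a library was left out. Of the co-repressors 0 were called in each of the 3, with 3, 7 and 10 at an unadjusted p under 0.05, and 4 to 11 when a library was left out (4 without *APOE3* replicate 30 or 33, 11 without *APOE3* replicate 31). Fits of 1 sex hold 4 libraries per genotype, and the cause of the lost calls with the covariate was not tested.

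Zfp74 was not called in 4 alternatives, with -0.25 in males alone (adjusted p = 0.269), -0.30 in females alone (adjusted p = 0.211), -0.17 with the covariate and -0.22 without *APOE3* replicate 33. Zfp27 turned below 0 with limma's voom (-0.028), after correction for GC content and length (-0.0053), in males alone (-0.052) and in some of the fits without 1 library (-0.040 to 0.11). With the score added, Zfp382 was at -0.011 and Zfp146 at 0.046. Zfp790 was at 0.089 in females alone and at -0.048 to 0.0097 when a library was left out. The cause was not tested. Zfp82 and Zfp566, with at most 31 reads per library, are limited by depth. No paired analysis was possible because the genotypes share no replicate numbers.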
